A study of Danio rerio with 6 samples.

Results

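The genes described here copy the chromosomes and then separate them: 24 replication genes and 20 mitosis genes of the zebrafish, 44 names in all. They were chosen with earlier results of these data known, so shares of the members are descriptions. Matching by symbol, case ignored, found 42 of the 44 names among 32266 identifiers. birc5a and ube2c matched no identifier and were not analysed here. The names mcm6 and rrm2 each matched 2 identifiers, so 26 replication rows and 18 mitosis rows, again 44 in all, were followed. All 44 rows passed the filter on low counts. The smallest count of any of them in any library was 9. RNA-seq was done on whole kidneys of EK fish aged 2.5 months. Wild type fish were compared with fish of the same parents that were runx1-/- (del25, hg97), lacking a transcription factor of blood development. Each library held the RNA of 3 pooled kidneys, and there were 3 such pools per genotype, so single fish cannot be seen. The labels give neither the sex of the fish nor a batch or dissection record.

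Adult zebrafish make their blood in the kidney, and much of the cell division in it belongs to blood precursors. A dividing cell first licenses its replication origins by loading the MCM ring with the help of ORC, Cdc6 and Cdt1, then fires them with Cdc45 and GINS, and copies the DNA behind the clamp PCNA. It later enters mitosis under Cdk1 with cyclins A and B and the Aurora and Polo kinases, and the spindle checkpoint holds it until every chromosome is attached. Growing fish oocytes also store messages for cell cycle proteins, which the early embryo uses before it transcribes its own genome. Mature red cells of fish keep a nucleus but no longer divide. A bulk library therefore adds up the division of several cell types, and fewer cells of a type cannot be told apart from less RNA per cell.

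The libraries held 16147770 to 30577328 expected counts. The mutated gene runx1 had 8, 5 and 7 counts in wild type pools 1 to 3 and 0, 5 and 5 in the runx1 null pools, too few to check the labels of single libraries. The pools differed in what else they held. The oocyte markers, of which 24 were tested, summed to 11.4, 589 and 2480 counts per 1000000 (CPM, at library sizes scaled by TMM) in wild type pools 1 to 3 and to 7.06, 91.7 and 828 CPM in runx1 null pools 1 to 3. The egg coat gene zp2.1 had 0 counts in wild type pool 1 and in runx1 null pool 1, and 283 CPM in wild type pool 3. The 16 erythroid markers summed to 155000 CPM in wild type pool 1 and to 72400 to 88900 CPM in the other 5 pools. alas2, which starts heme synthesis in red cells, was at 21800 CPM in wild type pool 1 and at 5620 to 7020 CPM elsewhere. The kidney tubule markers summed to 451 CPM in wild type pool 1 and to 1490 to 3960 CPM in the other pools. Wild type pool 1 was thus the pool with the most erythroid and the least tubule RNA, and wild type pool 3 the one with the most oocyte RNA. hbaa1, an adult alpha globin gene, was at 89900, 58100 and 63100 CPM in wild type pools 1 to 3 and at 43300, 54100 and 54100 CPM in runx1 null. All its runx1 null pools thus lay below all wild type pools, as for 6.24% of all genes tested. Its log2 fold change was -0.48 (SE 0.53, edgeR adjusted p 0.828). The neutrophil markers summed to 249, 1320 and 746 CPM in wild type pools 1 to 3 and to 92.5, 304 and 138 CPM in runx1 null pools 1 to 3. In runx1 null pool 2, mmp9 alone held 229 CPM of that sum. lyz and npsn were at 31.3 and 11.8 CPM there, for each the lowest of the 6 pools. Of the remaining lists, the testis markers summed to 9.4 to 30.2 CPM across the 6 pools. The lymphocyte markers summed to 129 CPM in runx1 null pool 3 and to 7.78 to 40.4 CPM in the other pools. Markers of hematopoietic stem and progenitor cells (HSPC) summed to 1130 CPM in wild type pool 1. In the other pools the HSPC sum was 464 to 626 CPM, lowest in wild type pool 3.

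No replication or mitosis gene differed between the genotypes past the test's threshold. In edgeR's quasi-likelihood test 0 of the 44 rows had an adjusted p-value under 0.05, and 0 of all 18864 genes tested (0%) did. The DESeq2 Wald test called 0 of the 44 rows and 0.557% of all genes. At an unadjusted p-value under 0.05 there was 1 of 44 rows in edgeR, against 5.23% of all genes tested (2.57% higher and 2.66% lower in runx1 null). No row had all runx1 null pools above all wild type pools, as 6.24% of all genes did, and none had them all below, as again 6.24% did. The median log2 fold change of runx1 null against wild type was -0.56 over the replication rows and -0.80 over the mitosis rows, beside -0.03 over all genes tested. Of the 44 rows, 39 had a log2 fold change below 0, or 88.6%, against 52.1% of all genes. Both medians changed sign without wild type pool 3: the replication median was then 0.20 and the mitosis median 0.16. The part of this pool's oocyte content in the difference was not tested.

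**Figure D1:**
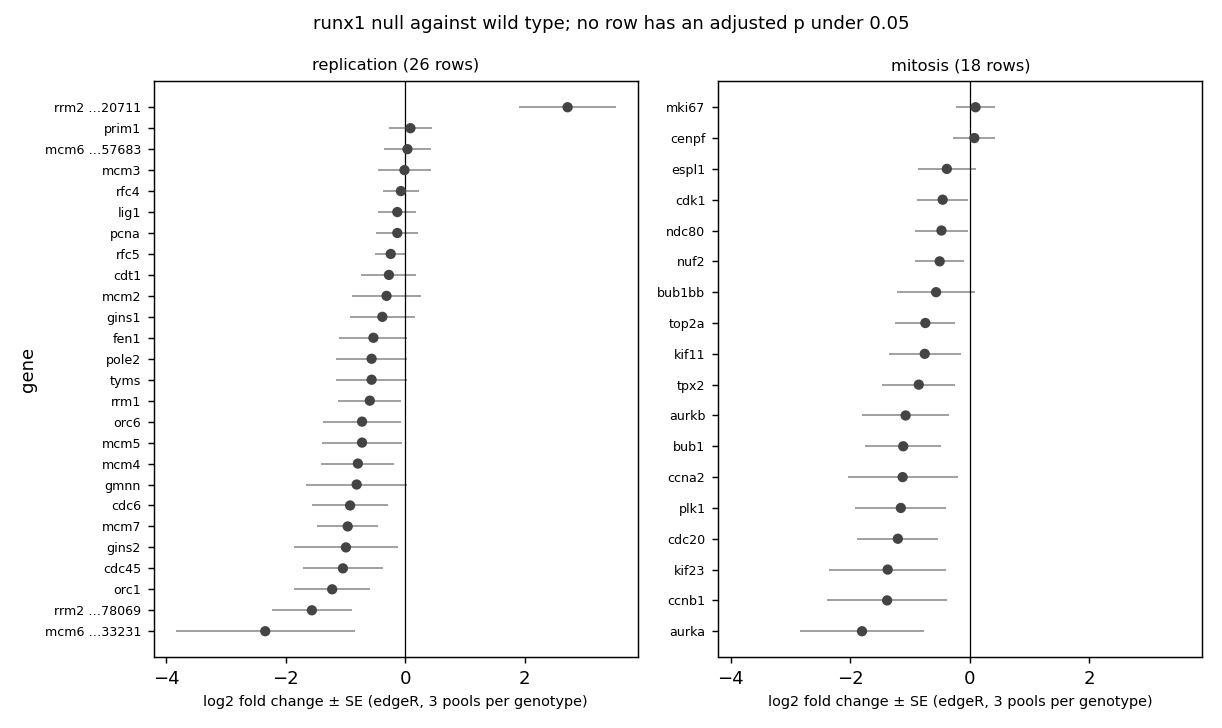
Log2 fold change of runx1 null against wild type (horizontal axis) with its standard error for each replication row (left) and mitosis row (right), from edgeR with 3 pools per genotype; mcm6 and rrm2 rows carry the last 5 digits of their identifier. Most points lie between -2 and 0, and the rrm2 row at 2.72 stands apart.

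What did vary was the level between pools of the same genotype. Wild type pool 3 was the highest of the 6 pools for 40 of the 44 rows, against 17.2% of all genes tested. Wild type pool 1 was the lowest for 37 of the 44, against 36.6% of all genes. For 37 of 44 rows all 3 runx1 null pools lay within the wild type range, against 25.5% of all genes. The highest and lowest wild type pools differed by a median of 2.36 log2 units over the 44 rows, and the runx1 null pools by 0.50. Over all genes tested these medians were 1.05 and 0.69. The range was wider among wild type than among runx1 null pools for 42 of the 44 rows and for 69.1% of all genes.

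**Figure D2:**
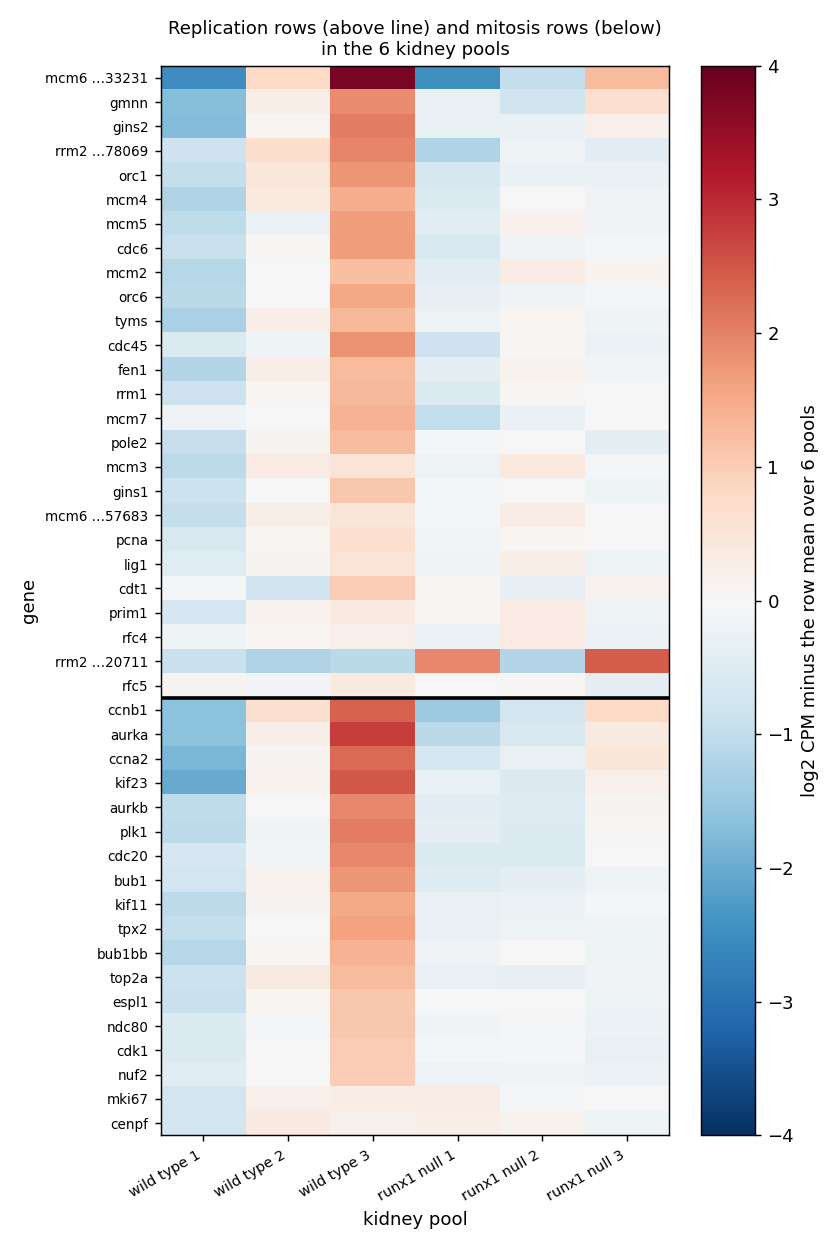
Log2 CPM minus the row's mean over the 6 pools (color) for each replication row (above the line) and mitosis row (below), ordered by slope on the oocyte score; columns are the kidney pools. Wild type pool 3 is the highest pool in 40 of 44 rows and wild type pool 1 the lowest in 37. The range is wider among wild type than among runx1 null pools in 42 rows.

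Among the genes that license origins, the MCM subunits mcm2, mcm3, mcm4, mcm5 and mcm7 had log2 fold changes from -0.96 to -0.01, all with an edgeR adjusted p-value of at least 0.811. mcm4, for example, was at 8.25, 25.0 and 51.9 CPM in wild type pools 1 to 3 and at 13, 19.2 and 17.1 CPM in runx1 null. The runx1 null pools all lay between the lowest and the highest wild type pool. The mcm7 row differed at the low end, since runx1 null pool 1, at 4.49 CPM, lay below wild type pool 1, at 7.91 CPM.

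The mcm6 subunit was represented by 2 identifiers with the same symbol, and they behaved differently. The row ENSDARG00000033231 was at 0.530, 5.14 and 40.7 CPM in wild type pools 1 to 3 and at 0.539, 1.52 and 7.04 CPM in runx1 null pools 1 to 3. This was a 76.7-fold span from lowest to highest pool, and the 6 pools stood in the order of their mean log2 CPM over the oocyte markers, given below as the oocyte score. The row ENSDARG00000057683 was at 5.93, 13.7 and 16.2 CPM in wild type and at 11.1, 14.1 and 11.6 CPM in runx1 null, a span of 2.73-fold. Their log2 fold changes were -2.34 (SE 1.5, edgeR adjusted p 0.811) and 0.04 (SE 0.40, edgeR adjusted p 0.984). Without wild type pool 3 the first became 0.10. An NCBI RefSeq gene list of the assembly GRCz12tu holds a gene mcm6 with the synonym MCM6z and a gene mcm6l with the synonym MCM6m. The files do not say which identifier is which, and reads of the pair could have been divided between them by the estimation of counts.

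Of the origin loaders and their inhibitor, 4 of 5 genes were lowest in wild type pool 1, and all 5 were highest in wild type pool 3. orc1 (ENSDARG00000039217), the large subunit of the origin recognition complex, was at 3.71, 9.97 and 24.5 CPM in wild type and at 4.49, 5.99 and 5.97 CPM in runx1 null. Its log2 fold change was -1.22 (SE 0.64, edgeR adjusted p 0.811). The runx1 null pools lay close together, between wild type pools 1 and 2. gmnn (ENSDARG00000035957), which encodes geminin, the inhibitor of Cdt1, was at 5.26, 20.4 and 63.1 CPM in wild type and at 13.8, 9.84 and 27.0 CPM in runx1 null, with -0.81 as log2 fold change (SE 0.84, edgeR adjusted p 0.821). cdt1 itself had its lowest level, 8.94 CPM, in wild type pool 2. The loader gene cdc6 and the ORC subunit gene orc6 had log2 fold changes of -0.92 (SE 0.64) and -0.72 (SE 0.65), and neither passed.

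The genes that start the helicase had their highest levels in wild type pool 3. gins2 (ENSDARG00000002304), a subunit of the GINS complex, was at 0.723, 2.57 and 10.1 CPM in wild type and at 1.97, 2.0 and 2.78 CPM in runx1 null. Its log2 fold change was -0.99 (SE 0.87, edgeR adjusted p 0.811), and the runx1 null pools lay within the wild type range. gins1 spanned 1.11 to 4.19 CPM over the 6 pools and cdc45 2.51 to 15.5 CPM.

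Several genes of the replication fork varied less between pools than most of the 44 rows. pcna (ENSDARG00000054155), the sliding clamp, was at 47.6, 79.3 and 116 CPM in wild type and at 69.5, 78.8 and 73.6 CPM in runx1 null, or 81.0 ± 34.3 against 74.0 ± 4.64 CPM (SD, n = 3). Its log2 fold change was -0.13 (SE 0.35, edgeR adjusted p 0.926). prim1 (ENSDARG00000040163), the catalytic subunit of primase, was at 4.82, 8.54 and 9.85 CPM in wild type and at 8.14, 9.84 and 6.71 CPM in runx1 null, and its log2 fold change was 0.09 (SE 0.36, edgeR adjusted p 0.955). The clamp loader genes rfc4 and rfc5 spanned 1.5-fold and 1.70-fold over the 6 pools. DNA ligase lig1 spanned 2.01-fold. Nuclease fen1 and polymerase subunit pole2 spanned more, 5.35-fold and 4.45-fold, with wild type pool 1 lowest and wild type pool 3 highest for each.

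Nucleotide supply held the row with the largest difference between genotypes. Ribonucleotide reductase makes deoxynucleotides from ribonucleotides, and its small subunit name rrm2 matched 2 identifiers. The row ENSDARG00000020711 was at 3.86, 3.08 and 3.37 CPM in wild type pools 1 to 3 and at 27.1, 3.15 and 37.7 CPM in runx1 null pools 1 to 3. Runx1 null pools 1 and 3 were thus far above every wild type pool, and runx1 null pool 2 lay among them, so the genotypes overlapped. The log2 fold change was 2.72 (SE 0.81), with an unadjusted edgeR p of 0.0128 and an edgeR adjusted p of 0.811; the DESeq2 adjusted p was 0.0734. This was the row counted above at an unadjusted p-value under 0.05. Unlike 40 of the 44 rows, it did not have its highest level in wild type pool 3.

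The other rrm2 row, ENSDARG00000078069, was at 26.4, 77.2 and 183 CPM in wild type and at 20.7, 40.7 and 35.7 CPM in runx1 null. Its log2 fold change was -1.56 (SE 0.67, edgeR adjusted p 0.811). Here wild type pools 2 and 3 were above all runx1 null pools, and wild type pool 1 lay within their range. In the RefSeq list rrm2 is a synonym of more than 1 gene, so the files do not settle which paralog each identifier is, and reads could have been divided between them. The large subunit gene rrm1 and the thymidylate synthase gene tyms had log2 fold changes of -0.59 (SE 0.53) and -0.56 (SE 0.60), and neither passed in edgeR.

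**Figure D3:**
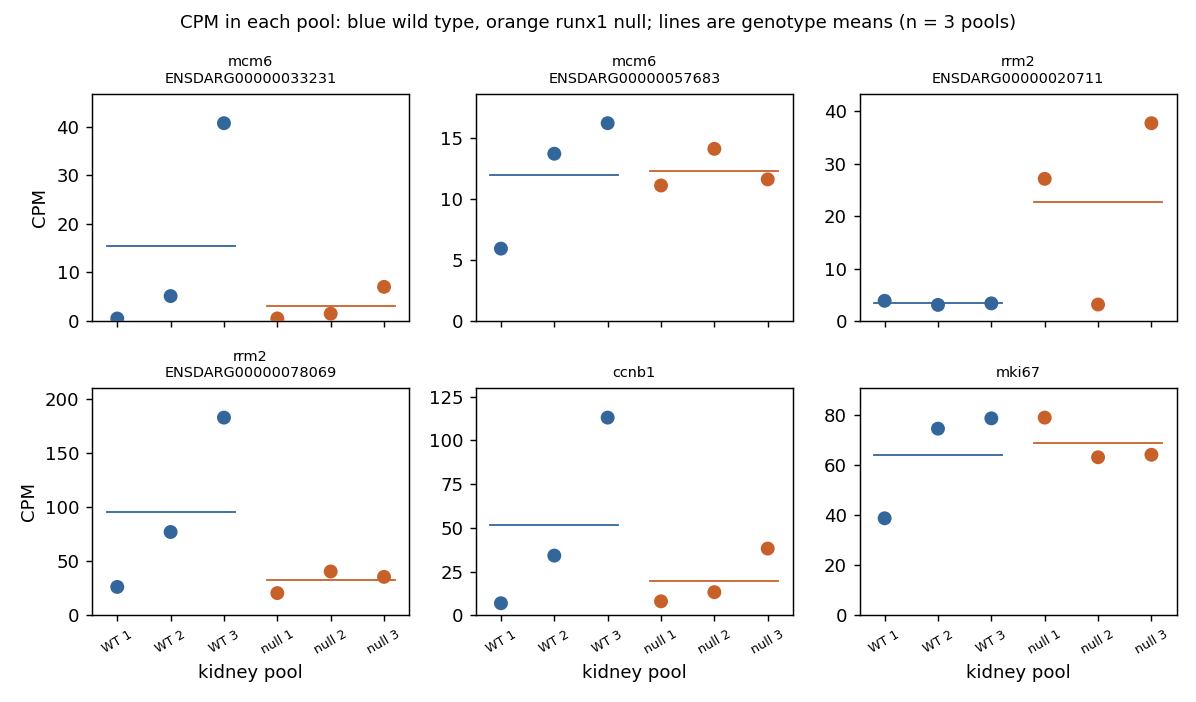
CPM in each pool (points, blue wild type and orange runx1 null; lines, mean of 3 pools) for the 2 mcm6 rows, the 2 rrm2 rows, ccnb1 and mki67, each panel on its own axis from 0. The mcm6 row ENSDARG00000033231 and ccnb1 reach 40.7 and 113 CPM in wild type pool 3, and the rrm2 row ENSDARG00000020711 is high only in runx1 null pools 1 and 3.

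Cyclins and kinases of mitosis showed wide gaps between pools. ccnb1 (ENSDARG00000051923), cyclin B1, was at 6.99, 34.2 and 113 CPM in wild type and at 8.08, 13.3 and 38.2 CPM in runx1 null. The 6 pools stood in the order of their oocyte scores, and the log2 fold change was -1.38 (SE 1.0, edgeR adjusted p 0.811). ccna2 (ENSDARG00000011094), cyclin A2, was at 3.47, 13.2 and 58.3 CPM in wild type and at 7.48, 9.91 and 17.0 CPM in runx1 null, and its log2 fold change was -1.12 (SE 0.92, edgeR adjusted p 0.811). aurka (ENSDARG00000012485), the Aurora kinase of spindle poles, was at 1.59, 5.81 and 33.6 CPM in wild type and at 2.33, 3.18 and 6.27 CPM in runx1 null. In all 3 genes wild type pool 3 was far above the other 5 pools, and the runx1 null pools lay within the wild type range. The log2 fold change of aurka was -1.80 (SE 1.04, edgeR adjusted p 0.811), and without wild type pool 3 it was 0.08.

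The kinase genes cdk1, aurkb and plk1 had log2 fold changes of -0.45 (SE 0.43), -1.07 (SE 0.73) and -1.15 (SE 0.76). cdk1, the kinase that drives entry into mitosis, spanned 3.01-fold over the pools, and plk1, the Polo kinase, 8.63-fold. cdc20, which activates the anaphase-promoting complex, had a log2 fold change of -1.20 (SE 0.68). None of these 4 passed in edgeR.

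The spindle and kinetochore genes fell into strongly and weakly varying rows. kif23 (ENSDARG00000014943), a kinesin of the central spindle in cytokinesis, was at 2.07, 9.21 and 47.1 CPM in wild type and at 7.06, 5.82 and 9.71 CPM in runx1 null. That was a span of 22.7-fold, the widest of the mitosis rows, and its log2 fold change was -1.37 (SE 0.98, edgeR adjusted p 0.811). The spindle motor gene kif11 and the microtubule nucleation factor gene tpx2 spanned 5.82-fold and 5.94-fold. The kinetochore genes ndc80 and nuf2, whose products form 1 complex, spanned 3.13-fold and 2.65-fold. The checkpoint genes bub1 and bub1bb spanned 5.78-fold and 5.71-fold. espl1 (ENSDARG00000075354), separase, which cuts cohesin at anaphase, was at 4.92, 9.61 and 19.3 CPM in wild type and at 9.15, 9.0 and 7.93 CPM in runx1 null, and its log2 fold change was -0.38 (SE 0.49, edgeR adjusted p 0.847). The runx1 null values of espl1 were nearly equal, close to that of wild type pool 2.

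The common proliferation marker mki67 (ENSDARG00000091150) showed a different order. It was at 38.7, 74.4 and 78.5 CPM in wild type pools 1 to 3 and at 78.8, 63.0 and 64.0 CPM in runx1 null, or 63.9 ± 21.9 against 68.6 ± 8.85 CPM (SD, n = 3). Its highest pool at this scaling was runx1 null pool 1, which held almost no oocyte RNA, but wild type pool 3 was nearly level with it. cenpf (ENSDARG00000055133), a kinetochore protein of late cell cycle, was at 9.6, 20.7 and 18.2 CPM in wild type and at 19.4, 17.7 and 13.9 CPM in runx1 null. These were the only mitosis rows with a log2 fold change above 0, at 0.10 (SE 0.32, edgeR adjusted p 0.938) and 0.08 (SE 0.35, edgeR adjusted p 0.961). They were also the only ones for which wild type pool 3 was not the highest pool, for mki67 by a small margin. top2a, the topoisomerase that untangles sister chromosomes, was lowest in wild type pool 1 and highest in wild type pool 3, at 12.8, 29.7 and 55.4 CPM in wild type and 18.6 to 21.1 CPM in runx1 null.

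As averages over their rows, replication and mitosis genes moved together from pool to pool. The replication score, the mean log2 CPM of the 26 rows, was 2.45, 3.41 and 4.53 in wild type pools 1 to 3 and 2.99, 3.26 and 3.39 in the runx1 null pools. The mitosis score, over 18 rows, was 2.53, 3.66 and 5.09 in wild type, against 3.20, 3.26 and 3.55 in runx1 null. Both scores put the 6 pools in the same order, from wild type pool 1 at the bottom through runx1 null pools 1, 2 and 3 and wild type pool 2 to wild type pool 3. The replication score minus the mitosis score was -0.09, -0.25 and -0.56 in wild type, against -0.21, -0.01 and -0.15 in runx1 null. Runx1 null pools averaged 0.17 higher on that difference, about the size of the pooled spread between pools of 1 genotype (SD 0.18), and without wild type pool 3 they averaged 0.04 higher. The difference was lowest in wild type pool 3. The replication score includes the rrm2 row ENSDARG00000020711, with a log2 fold change of 2.72 and a far higher level in runx1 null pool 3 than in pool 2. The part of that row in the 0.17, and in the order of those pools by replication score, was not computed. These values describe the scores, with no test.

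The oocyte score, the mean log2 CPM of the 24 oocyte markers, was -1.95, 3.80 and 6.14 in wild type pools 1 to 3 and -1.92, 0.83 and 4.25 in runx1 null pools 1 to 3. Within each genotype the replication score, the mitosis score and the oocyte score therefore ranked the pools alike. Among runx1 null pools this did not hold for most single replication rows. Most were lower in pool 3 than in pool 2, pcna at 73.6 against 78.8 CPM. The rrm2 row ENSDARG00000020711, which is part of the score, went the other way, at 37.7 against 3.15 CPM. The order of runx1 null pools 2 and 3 by replication score, 3.26 and 3.39, thus rests on a minority of rows. This rrm2 row rose the most of them, and the order without it was not computed. Summed CPM in runx1 null pools 1 to 3 was 330, 401 and 416 for replication rows and 247, 238 and 290 for mitosis rows. Across genotypes the ranking by score was looser. Runx1 null pool 3 had a higher oocyte score than wild type pool 2 but lower replication and mitosis scores, 3.39 against 3.41 and 3.55 against 3.66. Wild type pool 1 and runx1 null pool 1 had nearly the same oocyte score, and their replication scores were 2.45 and 2.99.

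**Figure D4:**
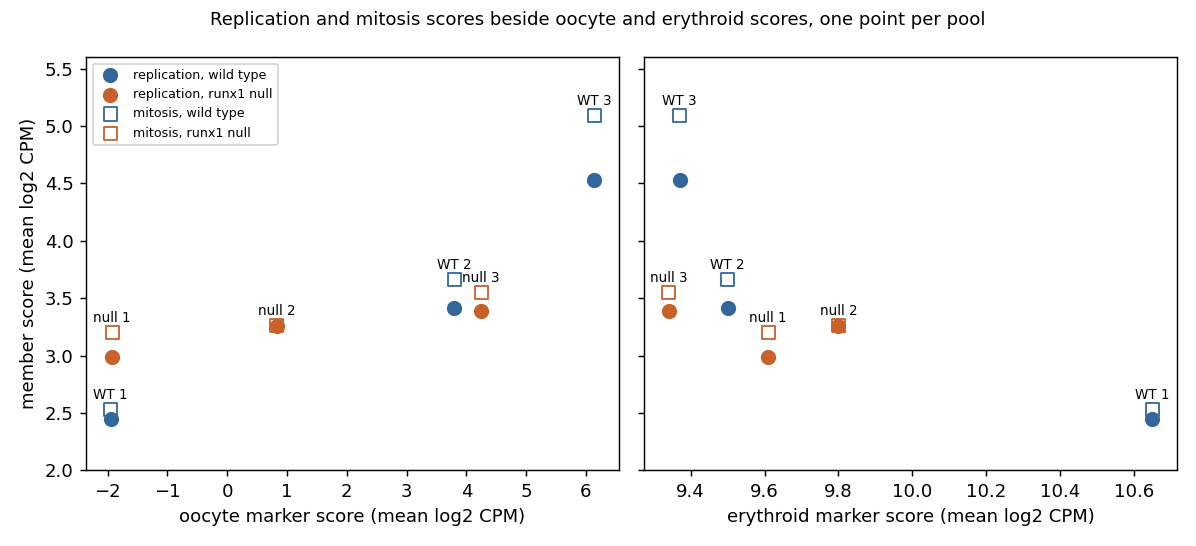
Replication score (filled circles) and mitosis score (open squares) of each pool, as mean log2 CPM, against its oocyte score (left) and erythroid score (right); blue is wild type, orange runx1 null. Wild type pool 3 has the highest oocyte score, 6.14, and the highest member scores, and wild type pool 1, with an erythroid score of 10.65, has the lowest member scores.

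Each gene's slope on the oocyte score was then fitted over the 6 pools with genotype as a second term, in units of log2 CPM per log2 unit of score. The slope was above 0 for 43 of the 44 rows, against 54.7% of all genes, with a median of 0.20 over the replication rows, 0.21 over the mitosis rows and 0.02 over all genes. At an adjusted p-value of 0.05 in edgeR, 2 of the 44 rows had a positive slope, or 4.55%, beside 1.11% of all genes tested. Of the 209 genes so called, 21 were markers that make up the score itself. No row had a negative slope past the threshold, nor did any gene (0%). At an unadjusted p-value under 0.05 the slope was positive for 27 of the 44 rows, 16 of them replication and 11 mitosis rows, against 11.3% of all genes.

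The rows that passed were the mcm6 row ENSDARG00000033231, with a slope of 0.71 (SE 0.08, edgeR adjusted p 0.0193), and ccnb1, with a slope of 0.44 (SE 0.05, edgeR adjusted p 0.0175). The slope of the mcm6 row stayed between 0.59 and 0.75 when each pool was left out in turn. It failed to pass without wild type pool 1 (edgeR adjusted p 0.223), wild type pool 3 (0.127), runx1 null pool 2 (0.0515) or runx1 null pool 3 (0.0702). The slope of ccnb1 stayed between 0.38 and 0.48. It failed to pass without wild type pool 1 (edgeR adjusted p 0.221), wild type pool 2 (0.0587), wild type pool 3 (0.131) or runx1 null pool 3 (0.0702). Without wild type pool 1, 0 of 19624 genes passed. The next steepest slopes were those of aurka at 0.42 (SE 0.10), ccna2 at 0.38 (SE 0.09), kif23 at 0.37 (SE 0.13), gmnn at 0.33 (SE 0.08) and gins2 at 0.32 (SE 0.11), with edgeR adjusted p-values from 0.157 to 0.208. The flattest were those of rfc5 at -0.01 (SE 0.04) and of the rrm2 row ENSDARG00000020711 at 0.02 (SE 0.13).

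**Figure D5:**
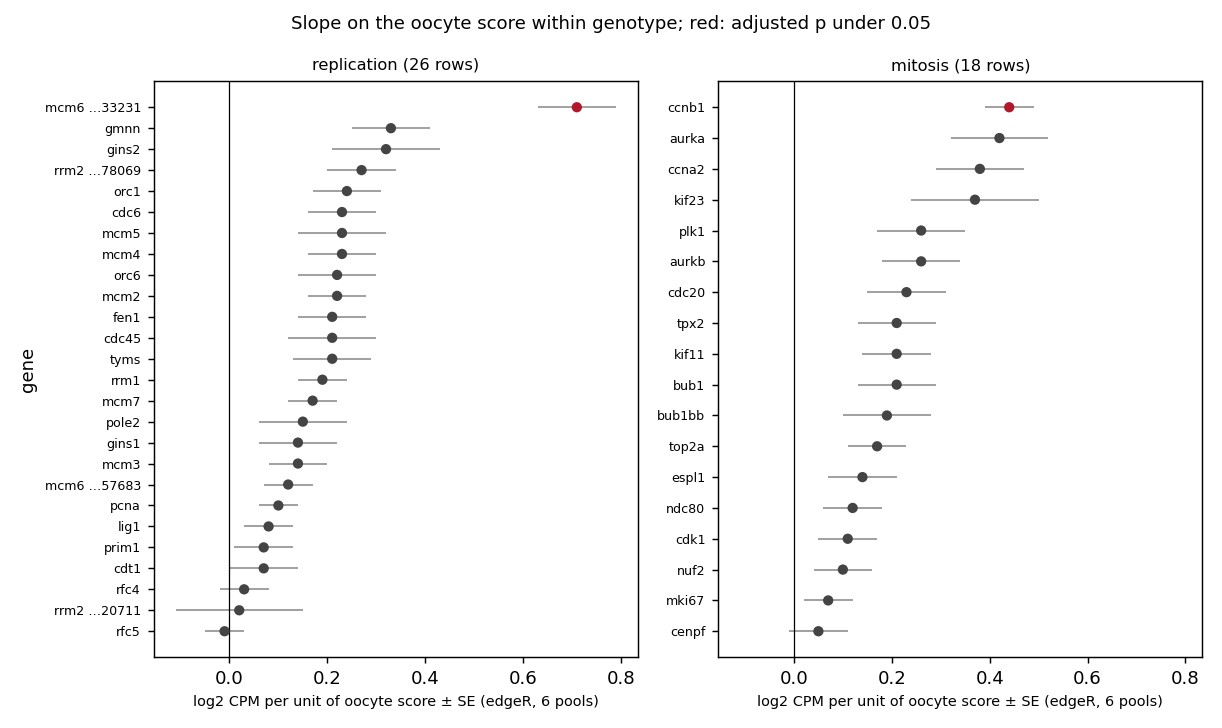
Slope of each replication row (left) and mitosis row (right) on the oocyte score, in log2 CPM per unit of score with its standard error, from edgeR over 6 pools with genotype in the fit; red marks an adjusted p under 0.05. The mcm6 row ENSDARG00000033231 (0.71) and ccnb1 (0.44) are red, and 43 of the 44 slopes are above 0.

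With the oocyte score as a covariate, the members' median genotype differences were closer to 0, though not every row's was. The median log2 fold change was 0.01 over the replication rows and -0.14 over the mitosis rows, and 0 of the 44 rows passed in edgeR. The rrm2 row ENSDARG00000020711 stayed at 2.74, and the other rrm2 row and orc1 were at -0.74 and -0.45. The reason for the shift in the medians was not tested. With 6 pools and 3 coefficients this fit has few residual degrees of freedom, and several rows named above changed sign in it. With the erythroid score, described next, as the covariate instead, the medians were -0.62 for replication and -0.90 for mitosis rows. Those medians were slightly further below 0 than the -0.56 and -0.80 found without a covariate.

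The erythroid score was 10.65, 9.50 and 9.37 in wild type pools 1 to 3 and 9.61, 9.80 and 9.34 in runx1 null pools 1 to 3. Slopes on it, again with genotype in the fit, were below 0 for 43 of the 44 rows, against 54.9% of all genes. The median slope was -1.24 over the replication rows, -1.52 over the mitosis rows and -0.14 over all genes. At an adjusted p-value of 0.05 in edgeR, 1 of the 44 rows had a negative slope, or 2.27%, beside 4.01% of all genes tested, and none had a positive one, beside 3.47%. The row that passed was gmnn, with a slope of -2.55 (SE 0.46, edgeR adjusted p 0.0430), and it failed to pass in each of the 6 fits that left out a pool. At an unadjusted p-value under 0.05 the slope was negative for 28 of 44 rows, against 20.7% of all genes. By the DESeq2 Wald test 24 of 44 rows passed, all with a negative slope. Beside them 5437 of 18864 genes passed in either direction, 2333 of these with a positive slope. Over all genes in edgeR, 0 passed without any 1 of the 3 wild type pools or without runx1 null pool 3, and 422 and 692 passed without runx1 null pools 1 and 2. Wild type pool 1 had the most erythroid RNA, the least kidney tubule RNA and an oocyte score at the bottom of the range. For this pool, which had the lowest replication and mitosis scores, these 3 traits cannot be told apart.

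Other genes of the same pathways, also listed with earlier results of these data known, were counted in the same way. Of the 44 further replication names, 41 matched, and of the 48 further mitosis names, 43 matched. For genotype, 0 of the 41 and 0 of the 43 passed in edgeR or in DESeq2, and 0 of either had an unadjusted edgeR p-value under 0.05. The median log2 fold change was -0.28 over the further replication genes and -0.67 over the further mitosis genes. Wild type pool 3 was the highest pool for 36 of the 41 and 42 of the 43, against 17.2% of all genes tested. The slope on the oocyte score passed for 0 of the 41 replication genes and for 3 of the 43 mitosis genes, or 6.98%, beside 1.11% of all genes tested.

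Those 3 were ccna1, ccnb2 and birc5b, named because they were so few. ccna1, cyclin A1, known in vertebrates as the germ line form of cyclin A, was at 0.386, 8.50 and 40.5 CPM in wild type and at 0.359, 1.08 and 13.6 CPM in runx1 null. Its slope was 0.85 (SE 0.06, edgeR adjusted p 0.00447). ccnb2, cyclin B2, was at 0.965, 11.2 and 83.3 CPM in wild type and at 1.02, 2.06 and 17.5 CPM in runx1 null, with a slope of 0.74 (SE 0.08, edgeR adjusted p 0.0138). birc5b, a survivin gene, had 1, 70 and 440 counts in wild type pools 1 to 3 and 0, 14 and 113 counts in runx1 null, with a slope of 1.03 (SE 0.10, edgeR adjusted p 0.0128). All 3 were close to 0 in wild type pool 1 and runx1 null pool 1, where the oocyte markers were lowest. They were picked by their slope on the oocyte score, so these low values add no separate evidence.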

How the data were processed

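For each library the authors deposited expected counts for 32266 Ensembl identifiers; between 12.7% and 14.9% of nonzero values were not whole and totals differed, so they were taken as unscaled. STAR, RSEM, DESeq2 and the build GRCz10 are named in the submitters' processing notes, with no role or order. The annotation and the use of strand are not given in the sources used here. Reads shared by paralogs are apportioned in such estimates.

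Symbols came from a table that named 26433 of the identifiers, and otherwise from unique synonyms in an NCBI RefSeq list of GRCz12tu. The TMM factor of wild type pool 1 was 0.771, and those of the other pools were 1.015 to 1.077. Counts were rounded, filtered with filterByExpr (minimum count 10, 18864 genes kept) and scaled by TMM. edgeR 4.0.16 under R 4.3.3 ran the quasi-likelihood F test, with Benjamini-Hochberg adjustment over all genes tested at 0.05. Standard errors are the log2 fold change divided by the square root of F. Scores use log2 CPM with a prior count of 2. DESeq2 1.42.0, other scalings and filters, the replicate number as a block, score covariates and leaving out each library were alternatives. The fits were also run on simulated data with large planted effects and a fraction of the estimated dispersion. That run does not show their power in these data. CPM is not per length, so levels are compared between pools, not between genes.

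The members and lists were chosen with earlier results of these data known. All 44 rows are accounted for; values per pool are given for those with an unadjusted genotype p under 0.05, with no overlap, among the 3 highest and 3 lowest fold changes and the 3 steepest oocyte slopes of each class, and for the highest mean CPM. Values per pool of mcm4 and top2a, and the 3 further genes with a slope past the threshold, were added after they were seen. Promoter motifs, planned as a description, were not analysed here. The marker lists matched 16 of 22 erythroid, 25 of 28 oocyte, 16 of 17 testis, 5 of 11 neutrophil, 12 of 12 lymphocyte, 11 of 11 HSPC and 10 of 14 kidney tubule names.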

Additional observations from a re-analysis of the deposited data

How the results depend on the processing

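No member passed for genotype under any alternative run. The DESeq2 Wald test moved the counts over all genes most, to 105 for genotype, 1666 for the oocyte slope and 5437 for the erythroid slope, of 18864 tested. The slope was positive for 1089 of the 1666 genes and 2333 of the 5437. Among the 44 member rows, 13 passed for the oocyte slope, all positive, and 24 for the erythroid slope, all negative. For the erythroid slope, 2 of 43 members were called where only genes averaging 50 counts or more were kept, beside 1430 of all 14491 genes. With TMM computed without the 50 highest genes, 2 of 44 were called, beside 1465 of 18864 genes. With the score without globins 2 of 44 were called, beside 1492 of 18864 genes. Without the genotype term 0 of 44 were called, beside 1944 of 18864 genes. The cause of these changes was not tested.

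With the oocyte covariate the replication median became 0.01, and the log2 fold changes of gmnn (0.28), gins2 (0.20), pcna (0.14), espl1 (0.08), kif23 (0.20) and ccna2 (0.21) changed sign. With the erythroid covariate those of the mcm6 row ENSDARG00000057683 (-0.06), mki67 (-0.01) and cenpf (-0.01) did. The replication and mitosis medians were then -0.62 and -0.90. Genes at an unadjusted edgeR p under 0.05 for genotype numbered 2301 with the oocyte and 1993 with the erythroid covariate, against 987 without.

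Across the 6 fits that each left out 1 pool, the genotype count stayed 0 (612 to 1437 genes at an unadjusted p under 0.05). The replication median ran from -0.95 to 0.20 and the mitosis median from -1.21 to 0.16, each with its highest value without wild type pool 3. Oocyte slope calls ran from 0 to 308 genes and 0 to 3 members, and erythroid slope calls from 0 to 692 genes and 0 members, with 0 genes in 4 of the 6 fits. Log2 fold changes ran from -3.88 to 0.10 for the mcm6 row ENSDARG00000033231, -0.29 to 0.32 for the other mcm6 row, -0.17 to 0.30 for prim1, -1.32 to 0.39 for gmnn, -1.49 to 0.44 for gins2, -0.41 to 0.22 for pcna, -0.17 to 0.28 for mki67, -0.20 to 0.29 for cenpf, -0.74 to 0.26 for espl1, -1.90 to 0.41 for kif23, -2.32 to 0.08 for aurka and -1.64 to 0.46 for ccna2. Of 240 refits of 16 named member rows, 25 changed sign and 215 kept direction and stayed short of the threshold.

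Wild type pool 3 stayed highest for 39 to 41 rows, and wild type pool 1 lowest for 35 to 41, under 3 other scalings chosen after seeing the data. Pools sharing a number are not said to share fish. Their deviations correlated at 0.094, -0.364 and 0.456, and 2 of the 6 pools correlated best with their own number. Under the replicate block, edgeR called 0 genes (900 at an unadjusted p under 0.05), and the medians were -0.25 for replication and -0.42 for mitosis. With 3 pools per genotype, no member's difference could be told from the spread between pools.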

Other observations

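A row with the symbol BIRC5 (ENSDARG00000075621), which was not counted as birc5a because no name in the tables ties them, was at 2.31, 3.64 and 10.2 CPM in wild type pools 1 to 3 and at 4.79, 4.30 and 3.41 CPM in runx1 null pools 1 to 3. Its log2 fold change was -0.37 (SE 0.58, edgeR adjusted p 0.868) and its slope on the oocyte score 0.14 (SE 0.09, edgeR adjusted p 0.408). In the pools with the fewest oocyte transcripts, wild type pool 1 and runx1 null pool 1, it was thus at 2.31 and 4.79 CPM.

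Not every replication gene had its lowest level in wild type pool 1. timeless, noticed after its values were seen, a component that protects the replication fork, was at 72.5 CPM there, its highest pool, and at 44.5 to 62.7 CPM in the other 5. Its log2 fold change was -0.21 (SE 0.24, edgeR adjusted p 0.830).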
